A study of Sus scrofa with 14 samples.

Results

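GPNMB-positive macrophages of sow milk were described here as the cells that passed the quality limits (300 or more genes, 25% mitochondrial UMIs or less) and held UMIs in at least 3 of GPNMB, CXCL14, APOE, FABP5, FABP4, GPX3 and LGALS3, GPNMB among them, and no UMI of CLDN4, EPCAM, CD3D, MMP8 or TOP2A. The last 5 genes mark epithelial cells, T cells, neutrophils and dividing cells. The rule found 1029 of 32085 kept milk cells. Of these, 181 of 17571 came from the library labelled L0 and 848 of 14514 from the library labelled L20, where L0 stands for day 0 and L20 for day 20 of lactation.

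A unique molecular identifier (UMI) marks 1 captured RNA molecule, and levels are given as CPM, the UMIs of a gene summed over the cells of a kind and scaled to a common total. The series covers multiparous sows in their second breeding cycle, and its labels name no treatment or genetic change in any group. Fresh milk was sequenced as whole cells, in 1 library for each label, and frozen mammary glands as nuclei, with 2 sows at each of G90 (day 90 of gestation), L0, L20, PI2 and PI7 (2 and 7 days of natural involution). A section of G90 and a section of PI2 were sequenced by spot. With 1 library per label, milk values carry counting error only and no test between the labels was possible.

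The 2 milk libraries held 84971814 (labelled L0) and 46923887 UMIs (labelled L20) over all barcodes. In the study's own plot of milk cells, colostrum and mature milk come in the other order, by cell number and by epithelial, macrophage and T-cell shares, than the labels give the files, so libraries are named by label and no direction by stage of lactation was drawn. The libraries shared 284 barcodes, 175 of them kept in both, and no barcode was a member in both. A doublet caller marked 0 cells in both libraries, and 7 (labelled L0) and 50 members (labelled L20) were among the 5% of cells with the highest doublet score. T-cell-like cells (a CD3D UMI) held casein and whey transcripts at 8932 (labelled L0) and 1407 CPM (labelled L20). The part of free RNA and of doublets in these values was not tested.

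Macrophages engulf dead cells, milk fat globules and debris, and break the cargo down in lysosomes with cathepsins and other acid hydrolases. Cholesterol and fatty acids that leave the lysosome are bound by fatty acid binding proteins, stored in droplets or passed to APOE-bearing particles outside the cell. GPNMB is a glycoprotein of lysosome and phagosome membranes that macrophages make when their lysosomes are loaded, and TREM2 is a surface receptor for lipids and APOE that marks lipid-laden macrophages of fat tissue, plaques and the injured brain. MITF, TFEB and TFE3 are transcription factors of lysosome genes, and bind E-box motifs.

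The 250 bases before the annotated RefSeq start of 4 genes are shown because the results below turn on these genes (Sscrofa11.1, 5′ to 3′ on the strand of the gene). GPNMB lies on chromosome 9 at 92037428-92071501, CTSD on chromosome 2 at 1188548-1197642, LGMN on chromosome 7 at 114176217-114210096 and TREM2 on chromosome 7 at 36465921-36471509. Capitals mark the E-boxes CACGTG and CATGTG, searched on both strands. CATGTG can overlap its own reverse complement.
GPNMB (chr9:92037178-92037427, plus strand): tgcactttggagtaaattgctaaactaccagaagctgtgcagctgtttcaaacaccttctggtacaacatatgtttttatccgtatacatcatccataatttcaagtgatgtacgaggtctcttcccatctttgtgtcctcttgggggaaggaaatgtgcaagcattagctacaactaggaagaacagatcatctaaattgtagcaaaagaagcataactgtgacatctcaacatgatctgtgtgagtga
CTSD (chr2:1197643-1197892, minus strand): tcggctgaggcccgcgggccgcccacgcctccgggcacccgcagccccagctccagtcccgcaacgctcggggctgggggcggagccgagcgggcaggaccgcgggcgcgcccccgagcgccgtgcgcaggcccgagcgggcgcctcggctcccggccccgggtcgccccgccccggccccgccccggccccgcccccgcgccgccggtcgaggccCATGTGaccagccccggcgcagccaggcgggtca
LGMN (chr7:114210097-114210346, minus strand): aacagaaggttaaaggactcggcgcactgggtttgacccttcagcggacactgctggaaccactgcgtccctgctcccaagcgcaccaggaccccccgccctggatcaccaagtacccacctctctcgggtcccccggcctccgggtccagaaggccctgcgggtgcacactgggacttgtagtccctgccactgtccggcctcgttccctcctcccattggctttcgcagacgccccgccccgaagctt
TREM2 (chr7:36471510-36471759, minus strand): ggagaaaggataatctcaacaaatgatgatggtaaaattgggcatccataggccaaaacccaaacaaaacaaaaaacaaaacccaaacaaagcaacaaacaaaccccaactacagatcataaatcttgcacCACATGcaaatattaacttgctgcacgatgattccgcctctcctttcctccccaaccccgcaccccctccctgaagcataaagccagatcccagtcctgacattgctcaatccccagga
CTSD held CATGTG 34 bases before its start, TREM2 held it on the other strand 119 bases before its start, and neither motif was found in the GPNMB and LGMN windows. Among all 19544 windows of this length, 6.39% held CACGTG and 8.45% held CATGTG. Of the 24 lysosome enzyme genes, 5 (20.8%) held CACGTG and 4 (16.7%) held CATGTG. Of 18 lysosome membrane and pump genes, 3 held CACGTG and 2 held CATGTG, and of 18 inflammatory cytokine genes 2 held each motif. Of the 14 genes of the TREM2 programme with a window, 0 held CACGTG and 3 (21.4%) held CATGTG. These matches describe the letters of the windows and no binding was measured.

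The members were 1.03% of kept cells in the library labelled L0 (95% exact binomial interval 0.886 to 1.19) and 5.84% in the library labelled L20 (5.47 to 6.24). The members were deeper than other cells, with a median of 5156 UMIs against 1322 in the rest of the library labelled L0, and 9562 against 1247 in the library labelled L20. After each cell was thinned to 1000 UMIs, 149 of 13004 cells met the rule in the library labelled L0 (174 of these cells before thinning) and 561 of 10648 in the library labelled L20 (799 before). Thus the larger number under the label L20 was also seen at 1 fixed depth.

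A GPNMB UMI alone did not define the cells. Among T-cell-marker cells (UMIs of both CD3D and CD3E), which should lack the gene, 4 of 90 (4.44%, interval 1.22 to 11.0, median 1977 UMIs) held a GPNMB UMI in the library labelled L0, and 13 of 388 (3.35%, 1.80 to 5.66, median 2006 UMIs) in the library labelled L20. Among macrophage-marker cells (UMIs in at least 2 of CD163, MSR1, CSF1R, MRC1 and CD68), 158 of 617 (25.6%, median 2894 UMIs) and 815 of 2065 (39.5%, median 4488 UMIs) held one. The shares in macrophage-marker cells were above those in T-cell-marker cells in both libraries, in cells of greater depth.

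At the edge of the rule, 101 (labelled L0) and 196 cells (labelled L20) had GPNMB and exactly 3 rule genes in all, just inside, and 171 and 253 had GPNMB and exactly 2, just outside. Another 31 and 289 cells held at least 3 rule genes without GPNMB. The 5 exclusion genes removed 485 cells of the library labelled L0, of which 400 had CLDN4 and 401 EPCAM, and 143 of the library labelled L20. The removed cells had medians of 26946 and 25703 UMIs. All 7 rule genes were detected in 4 members of the library labelled L0 and in 154 of the library labelled L20.

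The genes of the rule were high by choice, and their values describe the cells. GPNMB stood at 4014 CPM (labelled L0) and 3133 CPM (labelled L20) in the members. APOE, the lipoprotein component that carries cholesterol between cells, stood at 1870.2 and 3637 CPM, against 155 and 114 CPM in macrophage-marker cells without a GPNMB UMI (459 and 1250 cells, called GPNMB-zero macrophages). FABP5, a fatty acid carrier, stood at 4922 and 6548 CPM, against 821 and 536 CPM. Of the 7 rule genes, FABP4 differed most between the libraries. This fatty acid carrier of adipocytes and macrophages was detected in 9.94% of members in the library labelled L0 and in 69.8% in the library labelled L20, at 809.5 and 8657 CPM.

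LGALS3, a galectin that binds damaged lysosomes, stood at 2726 and 6363 CPM, and GPX3, a secreted glutathione peroxidase, at 243 and 645 CPM. CXCL14, a chemokine, was detected in 18.8% and 31.2% of members, at 593 and 1132 CPM. It was detected mostly in members with APOE, in 32.3% of those with and 3.53% of those without an APOE UMI in the library labelled L0, and in 41.5% and 6.77% in the library labelled L20. At 1000 UMIs per cell these shares were 21.8% and 3.36% (labelled L0), and 31.7% and 3.61% (labelled L20).

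**Figure D1:**
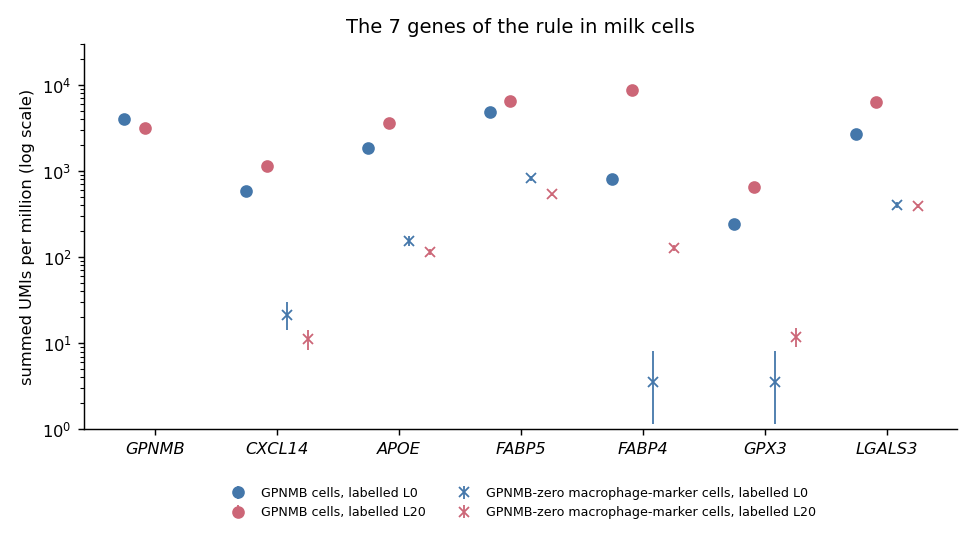
Summed levels (CPM, log axis) of the 7 rule genes in the GPNMB cells (circles) and in GPNMB-zero macrophage-marker cells (crosses) of the milk libraries labelled L0 (blue) and L20 (red), with 95% Poisson intervals, which are smaller than most symbols. FABP4 differs most between the libraries, at 809.5 and 8657 CPM in the GPNMB cells. GPNMB has no crosses because those cells were chosen without it.

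The label was checked against markers the rule did not use. Macrophage markers summed to 5870.3 (labelled L0) and 3218 CPM (labelled L20) in the members and to 73.5 and 91.4 CPM in T-cell-like cells, and 64.1% and 78.4% of members held UMIs in at least 2 of CD163, MSR1, CSF1R, MRC1 and CD68. TYROBP, the signalling partner of TREM2, was detected in 92.8% and 94.3% of members. CD68, a lysosome membrane protein of macrophages, was detected in 76.8% and 84.1%. Macrophage markers summed to 198 and 234 CPM in neutrophil-like cells (an MMP8 UMI). General myeloid markers, TYROBP among them, summed to 4609.6 and 5969.8 CPM in members, against 11329 and 9398 CPM in neutrophil-like cells. Shares of members with a UMI were not compared with other cells at equal depth. Thus most members, but not all, held at least 2 of the 5 macrophage markers.

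Markers of other cell types were not absent. Neutrophil markers summed to 5722 and 5049 CPM in the members, against 65573 and 53749 CPM in neutrophil-like cells (an MMP8 UMI). T and NK cell markers summed to 815 and 579 CPM, of which NKG7 gave 810.3 and 569.9 CPM, and CD3E, CD2 and CD8A were at 0 in the library labelled L0. Fibroblast markers summed to 2.26 and 0.399 CPM and adipocyte markers to 14.3 and 16.6 CPM. Endothelial markers summed to 205 and 274 CPM, more than in T-cell-like cells (97.9 and 48.7 CPM) and in GPNMB-zero macrophages (141 and 248 CPM). Of them, CDH5, VWF, KDR, MMRN1 and ESAM were at 0 in the library labelled L0, and KDR and MMRN1 in the library labelled L20. B and plasma cell markers summed to 253 and 273 CPM, against 38.1 and 21.0 CPM in T-cell-like cells. Epithelial markers summed to 10643 and 636 CPM, against 8034 and 1259 CPM in T-cell-like cells, and under the label L0 this was above the sum of the macrophage markers, as the neutrophil sum was under the label L20. The part of these markers in the results was not tested.

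Among all cells, clustered without the rule and exclusion genes, 82.9% of members of the library labelled L0 fell in 1 cluster led by JCHAIN, C1QB, SLA-DRA and C1QC, of which they were 6.99%. In the library labelled L20, 68.9% of members fell in 1 cluster led by SPP1, LGALS1, CTSD and ACP5, of which they were 42.9%. A further 11.8% fell in a cluster led by IL10, TIMP1 and CSF3.

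The members were not uniform. Clustered by themselves, now without the exclusion genes but with the rule genes allowed in, the 181 members of the library labelled L0 formed 2 groups. Rule genes could thus help to form the groups under both labels, and their levels in the groups are descriptive. The larger, of 105 cells with a median of 7069 UMIs, was led by C1QB, C1QC, SELENOP, ACP5 and APOE, with GPNMB at 4882 CPM, C1QB at 1452 CPM and SLA-DRA at 3458 CPM. The other, of 76 cells with a median of 3598 UMIs, was led by histone and heat shock genes, CCL3L1 and CCL4, with GPNMB at 1221 CPM, C1QB at 6.36 CPM, SLA-DRA at 483 CPM and TIMP1 at 1803 CPM.

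The 848 members of the library labelled L20 formed 5 groups. The largest, of 361 cells with a median of 18426 UMIs, held FABP4 at 11791 CPM, SPP1 at 18320.3 CPM, CTSD at 10586 CPM and CXCL14 at 1428 CPM. A group of 176 cells was led by CCL2 and CCL4, with SPP1 at 17255 CPM and FABP4 at 540.1 CPM. A group of 150 cells was led by ARG1, which consumes arginine, with ARG1 at 6092 CPM and TIMP1, an inhibitor of matrix proteases, at 26062 CPM. Of the 5 groups it had the lowest GPNMB, at 579 CPM, SPP1, at 957 CPM, and CTSD, at 887 CPM, and the highest IL10, at 225 CPM. The remaining groups of 115 and 46 cells had medians of 1185 and 1208 UMIs. The larger was led by SLAMF7, CD69 and CD24, and the smaller by JCHAIN and PAEP, with CSN2, the beta-casein gene, at 3546 CPM.

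Lysosome and lipid genes were read along the number of rule genes a member held. CTSD, the aspartyl protease cathepsin D, stood at 2847, 7110.5 and 12342 CPM in members of the library labelled L0 with 3, with 4 to 5 and with 6 to 7 rule genes, and at 1586, 4758 and 12500.3 CPM in the library labelled L20. CD36, a scavenger receptor that takes up oxidized lipoproteins and fatty acids, stood at 131, 651 and 984 CPM, and at 93.4, 583 and 1349 CPM. LIPA, the lysosomal acid lipase that frees cholesterol and fatty acids from their esters, stood at 363, 911 and 1234 CPM, and at 373, 809 and 1041 CPM. These 3 genes rose along the steps in both libraries, as did LPL, PLIN2, PLA2G7, LGALS1 and MSR1, and cells with more rule genes were also deeper. Some genes did not rise at each step in both libraries, among them SPP1, at 2329, 1689 and 5944 CPM (labelled L0), TREM2, at 28.1, 90.8 and 69.9 CPM (labelled L0), and LGMN, at 2081, 3218 and 3069 CPM (labelled L20).

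ARG1 ran the other way, at 517, 85.3 and 11.6 CPM (labelled L0) and 4545, 1409 and 59.4 CPM (labelled L20) along the same steps, as did TIMP1, at 1344, 672 and 157 CPM and at 20819, 6404 and 269 CPM. The highest step, of 6 to 7 rule genes, held 12 members labelled L0 and 316 labelled L20, so its values in the library labelled L0 rest on few cells.

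To show what sets the members apart from like cells, they were compared with the GPNMB-zero macrophages of the same library. A gene was counted when its CPM differed by at least 2-fold the same way in both libraries. Of 7719 genes with at least 20 UMIs, 870 (11.3%) were higher and 773 (10.0%) lower in the members, with median log2 ratios over all genes of 0.01 (labelled L0) and 0.28 (labelled L20). These cells were chosen by measured values, so the counts describe them. The GPNMB-zero macrophages were shallower, with medians of 2627 and 3320 UMIs, and had to hold 2 macrophage markers, which the members did not.

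Of the 32 lists of genes, chosen with earlier results of these data known, the lysosome enzymes had the most genes higher in the members by count. Of 23, 12 were higher by at least 2-fold in both libraries and 0 lower, with median log2 ratios of 1.42 and 1.2. The shorter TREM2 programme was ahead by share and median, with 9 of 14 higher and medians of 1.81 and 1.93. CTSD is in both lists. The lysosome enzymes summed to 35848 and 41088 CPM in the members, against 10802 and 18916 CPM in GPNMB-zero macrophages and 1569.8 and 2245 CPM in T-cell-like cells. CTSD stood at 6414 (labelled L0) and 9100 CPM (labelled L20), against 1156 and 892 CPM in GPNMB-zero macrophages. LGMN, the asparaginyl protease legumain that trims antigens and other proteases, stood at 3046 and 3016 CPM, against 398 and 969 CPM. GUSB, which cleaves glucuronides from matrix sugars, stood at 419 and 423 CPM, against 70.2 and 46 CPM. All 3 were higher by over 2-fold in both libraries.

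Further enzymes and helper proteins past 2-fold included CTSH, CTSS, CTSZ, HEXA, GAA, PSAP, GM2A and SMPD1, among them those that take apart gangliosides (HEXA, GM2A) and sphingomyelin (SMPD1). GM2A had log2 ratios of 2.75 and 1.59 and SMPD1 of 2.01 and 1.61. CTSL, the cysteine protease cathepsin L, did not keep 1 direction. It stood at 923 CPM in members against 318 CPM in the library labelled L0, and at 3305 CPM against 5991 CPM in the library labelled L20.

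Among 17 genes of the lysosome membrane and proton pump, 0 passed in both libraries, with median log2 ratios of 0.38 and 0.33. LAMP1, a main membrane glycoprotein of the lysosome, stood at 684 and 679 CPM in the members and at 562 and 533 CPM in GPNMB-zero macrophages. Of the transcription factors of lysosome genes, MITF stood at 164 and 119.9 CPM in the members against 250 and 159.7 CPM, and TFEB at 36.2 and 28.6 CPM against 49.9 and 20.4 CPM, within 2-fold in both libraries. Thus enzymes, but not membrane or pump genes, passed the 2-fold limit, though the difference between these lists was not tested.

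Of 14 genes of the TREM2 programme, 9 were higher by at least 2-fold in both libraries and 0 lower (median log2 ratios 1.81 and 1.93). TREM2 gave 90 (labelled L0) and 1657 UMIs (labelled L20) in the members and 4 and 36 UMIs in GPNMB-zero macrophages, or 67.9 and 165 CPM against 2.81 and 6.99 CPM. LGALS1, a secreted galectin, stood at 3666 and 7580.5 CPM against 174 and 318 CPM. SPP1, the phosphoprotein osteopontin, stood at 2447 and 15603 CPM against 711 and 1791 CPM. TREM2 and LGALS1 had ratios that lay close together in the 2 libraries, at log2 values of 4.60 and 4.56, and of 4.40 and 4.58.

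Of 9 lipid uptake genes, CD36, LPL and CD9 were higher in both libraries. CD36 stood at 527 and 995 CPM against 64.6 and 56.3 CPM, and LPL, the lipase that frees fatty acids from triglyceride particles, at 87.5 and 81.5 CPM against 17.6 and 2.91 CPM.

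Of 11 lipid droplet genes, 2 were higher and 2 lower, against 11.3% and 10.0% among all genes, so the list was not read as a set. The higher genes were PLIN2, which coats droplets, and MGLL, which splits monoacylglycerol. The lower genes were SOAT1, which esterifies cholesterol, and G0S2, an inhibitor of droplet lipolysis. PLIN2 stood at 1747 and 2665 CPM against 627 and 1285 CPM, and SOAT1 at 83.0 and 128 CPM against 205 and 313 CPM. Of 8 cholesterol efflux genes, 1 was higher, a share near that of all genes, and 2 were lower. The higher gene was LIPA, at 776 and 906 CPM against 138 and 225 CPM, and the lower ones ABCG1 and MYLIP. ABCA1, the exporter that loads cholesterol on apolipoproteins, stood at 177 and 236 CPM against 304 and 883 CPM, past 2-fold in the library labelled L20.

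Of 16 genes of oxidant defence and iron, GPX4, FTL, NQO1, PRDX1, SOD1, CAT and BLVRB were higher and SLC7A11 lower. FTL, the light chain of the iron store ferritin, stood at 30039 and 20953 CPM against 7892 and 10439 CPM. SLC7A11, the cystine importer, stood at 14.3 and 16.7 CPM against 68.8 and 56.9 CPM.

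Inflammatory genes were lower in the members. Of 13 cytokine and mediator genes, 11 were lower by at least 2-fold in both libraries and 0 higher (median log2 ratios −2.07 and −1.46), against 10.0% lower among all genes. They summed to 5642 and 7996 CPM in the members, against 17917 and 22527 CPM in GPNMB-zero macrophages. T-cell-like cells held 18731 and 22679.6 CPM and neutrophil-like cells 27535 and 24732 CPM. Epithelial-like cells (UMIs of both EPCAM and CLDN4) were below the members, at 3963 and 3036 CPM. CXCL8, the neutrophil attractant, stood at 1065 and 1307 CPM against 2888 and 4133 CPM. IL1A stood at 36.2 and 62.8 CPM against 207 and 395 CPM, and PTGS2, the enzyme of prostaglandin synthesis, at 11.3 and 7.48 CPM against 237 and 101 CPM. TNF stood at 6.79 and 42.6 CPM against 95.5 and 117 CPM.

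Of 8 alternative activation genes, ARG1, IL10, CD163, IL4R and F13A1 were lower and VSIG4, a complement receptor, higher. ARG1 stood at 215 and 906 CPM against 2161 and 4933 CPM. CD163 stood at 327 and 316 CPM against 814 and 1301 CPM, and CSF1R at 181 and 153 CPM against 529.5 and 427 CPM, but both genes were used to choose the GPNMB-zero macrophages. Of 8 neutrophil markers 6 were lower, among them IL1R2, a decoy receptor of interleukin 1, at 86.8 and 23.2 CPM against 1146 and 463 CPM. Neutrophil markers summed to 11576 and 18722 CPM in GPNMB-zero macrophages, against 5722 and 5049 CPM in the members, and their part in the lower cytokine values was not tested.

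The 10 genes with the largest ratio in both libraries, beside TREM2 and LGALS1, were TREH, PHYH, TSPAN4, BTC, CD209, RNF123, CDC42EP3 and PIK3IP1. TREH, the enzyme that splits trehalose, gave 120 and 1719 UMIs in the members and 6 and 17 in GPNMB-zero macrophages. PHYH, a peroxisomal enzyme that breaks down phytanic acid, stood at 279.9 and 338 CPM against 19.0 and 23.7 CPM. CD209 also stood at 118 and 147 CPM in epithelial-like cells (UMIs of both EPCAM and CLDN4), against 46.8 and 176 CPM in the members. The 10 genes with the lowest ratio were THBS1, PADI4, PTGS2, IL1R2, CXCL11, TNIP3, MAPK4, ACOD1, HTR7 and IGFBP6. ACOD1, the itaconate-making enzyme of activated macrophages, stood at 3.77 and 51.4 CPM against 103 and 471 CPM.

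**Figure D2:**
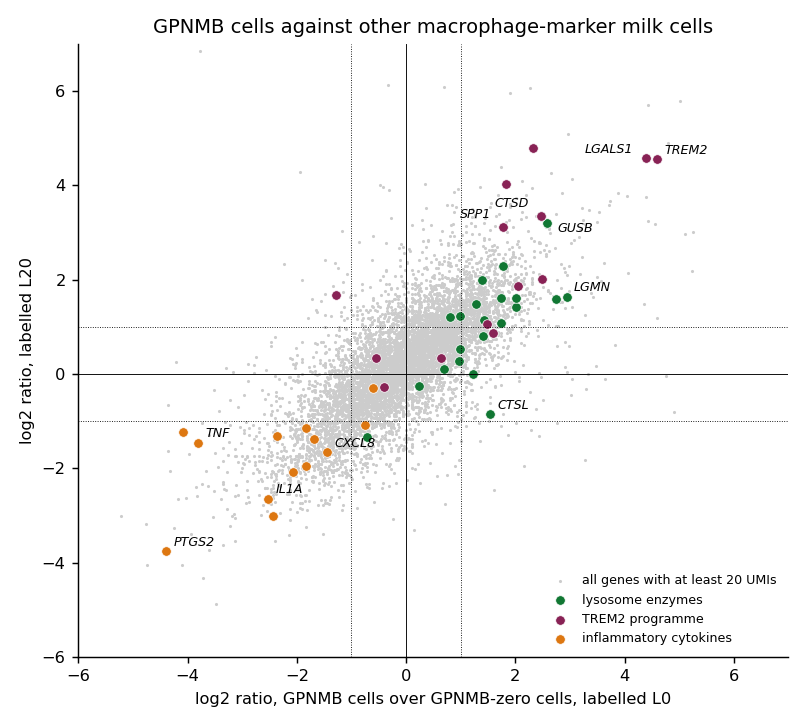
Log2 ratio of CPM in the GPNMB cells over GPNMB-zero macrophage-marker cells in the library labelled L0 (horizontal) and labelled L20 (vertical), 1 point per gene, with dotted lines at 2-fold. Lysosome enzymes (green) and the TREM2 programme (purple) lie mostly to the upper right, with 12 of 23 and 9 of 14 genes past 2-fold in both libraries, and inflammatory cytokines (orange) to the lower left, with 11 of 13.

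At 1 depth, the genes most like GPNMB were found as those whose share of macrophage-marker cells with a UMI differed most between GPNMB-positive and GPNMB-zero cells thinned to 1000 UMIs (104 and 497 cells labelled L0, 542 and 1493 labelled L20). They were FABP5, LGALS1, LGMN, S100A10 and LGALS3, of which FABP5 and LGALS3 belong to the rule. LGMN was detected in 80.8% of GPNMB-positive and 20.9% of GPNMB-zero cells in the library labelled L0, and in 87.3% and 45.0% in the library labelled L20. LGALS1 was detected in 57.7% and 7.85%, and in 76.2% and 18.4%. CTSZ came next, and after it CTSD, at 82.7% and 49.9%, and at 86.2% and 41.3%. Each cell held the same number of UMIs in these shares.

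Between the libraries, 1071 of 10097 genes (10.6%) were at least 2-fold higher in the members labelled L20 and 997 (9.87%) at least 2-fold lower, with a median log2 ratio over all genes of 0.09. Each label had 1 library and no replicate, so the intervals below cover counting error alone, and a difference between libraries cannot be told apart from one between stages or sows. Values of T-cell-like cells are set beside those of the members where free RNA or the library as a whole could move them.

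The lysosome enzymes hardly differed between the libraries, with 1 of 23 higher and 0 lower (median log2 ratio 0.01). LGMN had a log2 ratio of −0.01 (95% interval −0.06 to 0.03) and CTSD of 0.50 (0.47 to 0.54). The mix of members differed between the libraries, since 12 of 181 (labelled L0) and 316 of 848 (labelled L20) held 6 to 7 rule genes. FABP4, a rule gene, was itself detected in 9.94% and 69.8% of members, so the same number of rule genes can mark unlike cells. At equal numbers of rule genes CTSD stood at 2847 and 1586, at 7110.5 and 4758, and at 12342 and 12500.3 CPM (labelled L0 and L20), so the higher sum under the label L20 was not seen within the 2 lower steps. CTSL was the 1 gene past 2-fold, at 1.84. FABP4 had a log2 ratio of 3.42 (3.33 to 3.51), and SPP1 of 2.67, from 2447 to 15603 CPM. By number of rule genes SPP1 stood at 2329, 1689 and 5944 CPM (labelled L0) and at 3529, 8504 and 21127 CPM (labelled L20). It was higher under the label L20 at each step. In T-cell-like cells SPP1 stood at 38.1 and 118 CPM. Of the pump genes, ATP6V0D2, a subunit found in osteoclasts and macrophages, gave 0 UMIs in the members labelled L0 and 452 in those labelled L20, a log2 ratio of at least 4.32 against a floor of 3 counts. GPNMB-zero macrophages had it the other way round, at 30.9 and 0.389 CPM.

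Complement genes were mostly lower in the summed members labelled L20. Of 9 complement genes, C1QA, C1QB, C1QC, C3 and SERPING1 were lower and C3AR1 higher. C1QB stood at 1109 and 261 CPM and C1QA at 678 and 205 CPM. Of 9 MHC II and antigen presentation genes, SLA-DRA and SLA-DQB1 were lower and CD40 higher (median log2 ratio −0.41). SLA-DRA, the alpha chain of an MHC II molecule, stood at 2752 and 1079 CPM. In GPNMB-zero macrophages C1QB stood at 1091 and 51.1 CPM, a larger ratio between the libraries than in the members. By number of rule genes (3, 4 to 5, 6 to 7), C1QB stood at 1402, 1147 and 221 CPM labelled L0 and at 134, 184 and 319.8 CPM labelled L20, and SLA-DRA at 1454, 3678 and 2067 CPM and at 1427, 1588 and 768 CPM. The difference was thus not seen at every step, though a step can hold unlike cells in the 2 libraries. The mix of members also differed between the libraries.

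Of 11 cholesterol synthesis genes, 7 were lower in the members labelled L20 and 0 higher (median log2 ratio −1.27), with 1 interval reaching past 0. SQLE, which makes squalene epoxide, stood at 46.8 and 7.28 CPM (log2 ratio −2.68). The list summed to 574 and 231 CPM in the members, to 618 and 456 CPM in T-cell-like cells and to 569 and 306 CPM in GPNMB-zero macrophages. The list was thus lower under the label L20 in each of these kinds. PPARG, the fatty acid receptor that drives lipid uptake genes, stood at 155 and 57.3 CPM (−1.43).

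Of 12 interferon genes, ISG15, MX1, MX2, IFIT1, IFI6 and RSAD2 were higher and GBP1 lower in the members labelled L20 (median log2 ratio 1.02). MX1, a GTPase against viruses, gave 7 and 2025 UMIs, or 5.28 and 202 CPM. It was detected in 3.31% and 49.3% of members. In T-cell-like cells MX1 stood at 0 and 111 CPM and IFI6 at 35.4 and 506 CPM, so the interferon genes were higher under the label L20 in these cells too. IFI6 stood at 573 and 1973 CPM in the members.

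Of 15 inflammatory genes, TNF, CCL2, CCL4, OSM and CSF3 were higher and CSF1 lower in the members labelled L20, with the interval of OSM reaching past 0. CCL2, the monocyte attractant, stood at 176 and 1593 CPM. Stress genes were lower, with 5 of 9 past 2-fold, among them HSP90AA1 at 2933 and 764 CPM and DNAJB1 at 1916 and 144 CPM. T-cell-like cells had HSP90AA1 at 1575 and 644 CPM and DNAJB1 at 1347 and 291 CPM, so these heat shock genes differed the same way in cells of another type. Caseins were lower in members and T-cell-like cells alike, with CSN2 at 7311 and 364 CPM in the members and 5047 and 786 CPM in T-cell-like cells.

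The 10 genes with the highest ratio were LY6D, MX1, TDRD9, ATP6V0D2, AMCF-II, DZIP1L, Y_RNA_4, NPAS1, IL7R and ISG12(A). LY6D gave 1 and 553 UMIs, in 1 and 127 members. IL7R, the interleukin 7 receptor, stood at 18.1 and 256 CPM in the members, and also at 286 and 469 CPM in T-cell-like cells. The 10 with the lowest ratio were CDKN1C, RAMP3, PRRG2, HSPA1L, BTN1A1, SPINK9, CSN2, PGLYRP1, SYTL3 and LTF. Of these, BTN1A1, SPINK9, CSN2, PGLYRP1 and LTF stood higher in epithelial-like cells than in members of either library, with PGLYRP1, a peptidoglycan-binding protein, at 16859 and 9814 CPM against 760.5 and 38.3 CPM.

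**Figure D3:**
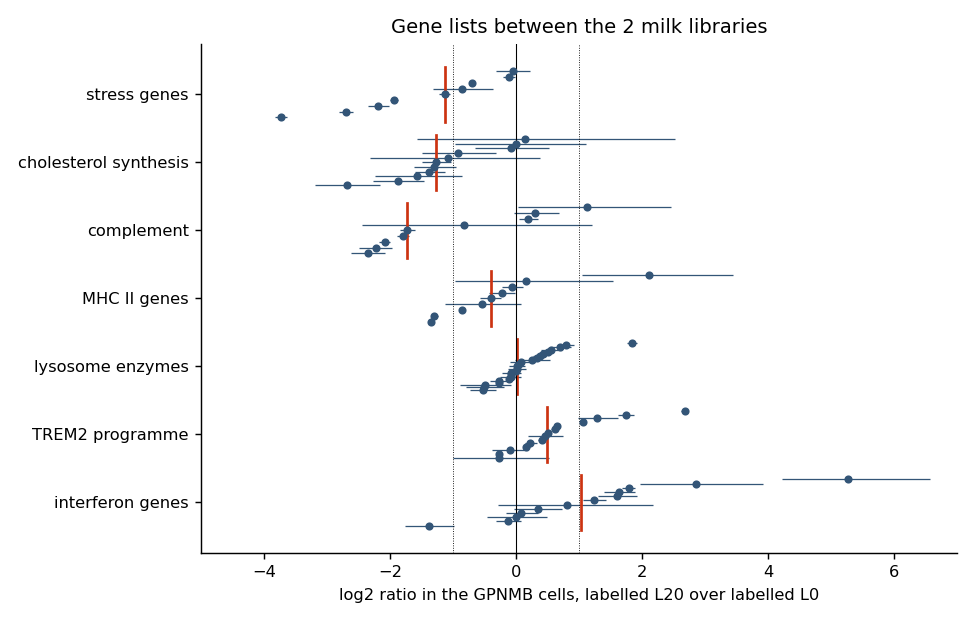
Log2 ratio of CPM in the GPNMB cells, labelled L20 over labelled L0, with 1 point and its 95% counting interval per gene, grouped by list. Red bars mark the median of a list and dotted lines 2-fold. Cholesterol synthesis (median −1.27) and complement genes (−1.73) lie below 0, lysosome enzymes (0.01) near 0 and interferon genes (1.02) above 0.

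The same rule was applied to nuclei of the 10 mammary glands, which did not choose the milk cells. The G90 glands had 0.0438% and 0.0321% of nuclei that met it. The L0 glands had 0 of 11442 (exact binomial upper limit 0.0322%) and 0.0106%, and the L20 glands 0.254% and 6.75%. The PI2 glands had 0.482% and 0.0107%, and the PI7 glands 3.06% and 2.01%. Gland L20 replicate 2 stood apart from the other lactating glands, and both PI7 glands were above every gland of G90, L0 and PI2 and above L20 replicate 1. The 4 lactating glands had a mean of 1.75% ± 3.33 (SD, n = 4) and the 6 others 0.940% ± 1.29 (SD, n = 6). The difference of 0.815 percentage points was not detectable (exact two-sided permutation test over 210 assignments, p = 0.690). Without L20 replicate 2 it was −0.851 (exact permutation p = 0.226).

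Nuclei meeting the rule were not as clearly macrophages as the milk cells. At least 2 macrophage markers were found in 401 of 1023 such nuclei in L20 replicate 2, and in 207 of 511 and 94 of 202 at PI7. Macrophage markers summed to 1971 CPM in those of L20 replicate 2, against 1679 CPM in all its nuclei, and to 1547 and 2608 CPM at PI7, against 613 and 567 CPM. Adipocyte markers summed to 470.0 CPM in those of L20 replicate 2, against 267 CPM in all its nuclei, and 234 of the 1023 held one. At PI7 they summed to 36.8 and 112 CPM, against 37.8 and 28.3 CPM in all nuclei. Endothelial markers summed to 1830.4 and 2259 CPM in the 5 and 6 nuclei meeting the rule at G90, against 549 and 406 CPM in all nuclei, and to 415 CPM against 851 CPM in L20 replicate 2. FABP4 belongs to the rule and is also a gene of fat cells. The part of adipocyte and endothelial nuclei or their RNA in the share was not tested.

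**Figure D4:**
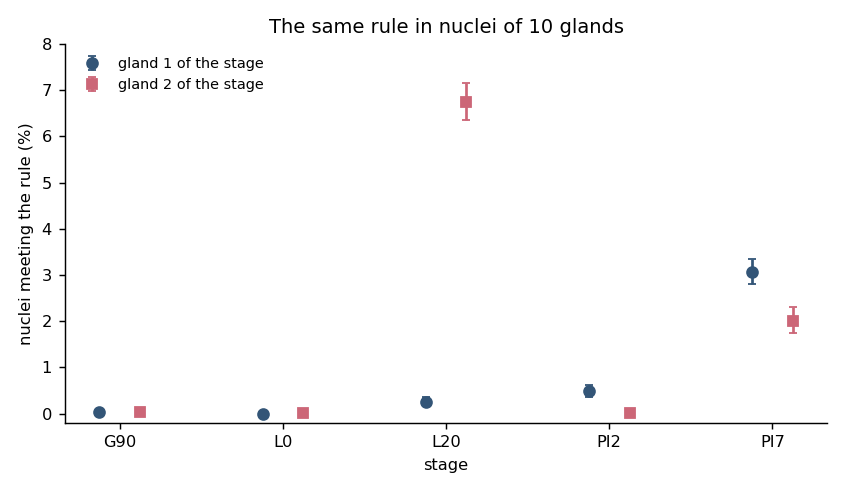
Percent of nuclei meeting the milk rule in each of 10 glands by stage, with gland 1 as circles, gland 2 as squares and 95% exact binomial intervals. L20 gland 2 lies at 6.75%, both PI7 glands at 3.06% and 2.01%, and the other 7 at or below 0.482%.

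A contrast close to that of milk was then tested in the glands, where sows are replicates. In 7 glands with at least 10 nuclei of both kinds (both of G90, L20 and PI7, and PI2 replicate 1), macrophage-marker nuclei with a GPNMB UMI were compared with those without one, with the sow as a block, by edgeR's quasi-likelihood test. GPNMB chose the nuclei and was not tested. Nuclei were split by a GPNMB UMI alone and not by the milk rule. Among GPNMB-positive nuclei, 0 of 25 and 1 of 24 met it at G90, and 11 of 51 and 401 of 841 at L20. It was met by 12 of 46 at PI2, and by 207 of 378 and 94 of 169 at PI7. A GPNMB UMI was held by 4.06% to 18.4% of all nuclei of these glands, and by 9.96% to 40.2% of macrophage-marker nuclei. The part of free RNA in the split was not tested. Of 7410 genes, 115 (1.55%) were higher and 123 (1.66%) lower at an adjusted p under 0.05 and at least 2-fold, with a median log2 fold change over all genes of −0.01. Nuclei and whole cells differ in which RNA they hold, so levels are not compared between milk and gland.

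Lysosome enzymes rose in GPNMB-positive nuclei, with 12 of 22 called higher and 0 lower (median log2 fold change 1.01). CTSB, the cysteine protease cathepsin B, stood at 1420, 892, 1050, 1070, 1120, 1450 and 1580 CPM in GPNMB-positive nuclei of G90 replicates 1 and 2, L20 replicates 1 and 2, PI2 replicate 1 and PI7 replicates 1 and 2. In the GPNMB-zero nuclei it stood at 407, 256, 597, 373, 343, 392 and 488 CPM in the same order. The ranges did not overlap, and CTSB was higher in 7 of 7 glands (log2 fold change 1.63, SE 0.16, edgeR adjusted p = 7.02e-07).

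CTSD stood at 256, 465, 2500, 1180, 1410, 3760 and 4230 CPM against 148, 156, 1450, 237, 235, 966 and 740 CPM. It was higher in 7 of 7 glands (log2 fold change 1.90, SE 0.22, edgeR adjusted p = 4.38e-06), although GPNMB-zero nuclei of L20 replicate 1 stood above GPNMB-positive nuclei of 4 glands. LGMN stood at 769, 650, 605, 843, 599, 382 and 665 CPM against 201, 276, 512, 514, 235, 247 and 258 CPM (log2 fold change 1.04, SE 0.17, edgeR adjusted p = 2.12e-04). Other called enzymes and activators included PSAP, CTSZ, CTSH, CTSS, CTSA, GRN, GLA and CTSL. The called genes were only partly those past 2-fold in milk. CTSD, LGMN, PSAP, CTSZ, CTSH and CTSS passed in both. CTSB, CTSA, GRN, GLA and CTSL were not past 2-fold the same way in both milk libraries. HEXA, GAA, GUSB, GM2A and SMPD1, past 2-fold in milk, were not called in the glands. Of these, HEXA, GAA, GUSB and GM2A were higher at an unadjusted edgeR p under 0.05.

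In the glands, membrane and pump genes were called as well, with 7 of 15 higher (SLC37A2, ATP6V1A, ATP6AP1, ATP6AP2, ATP6V1B2, TCIRG1 and CD82; median log2 fold change 0.92). The number called depended on the glands and settings, with 1 of 14 called without PI7 replicate 1, 4 of 14 without PI7 replicate 2, 3 of 12 with at least 3 macrophage markers, and 0 of 12 by edgeR with nuclei thinned to 1000 UMIs (11 higher and 0 lower at an unadjusted p under 0.05). Of 13 genes of the TREM2 programme, CTSB, CTSD, CSTB, LPL, LIPA, LGALS1, TREM2 and SPP1 rose and 0 fell (median 1.28). LPL stood at 34.2, 74.3, 250, 622, 270, 192 and 350 CPM against 27.6, 156, 46.8, 176, 25.4, 32.9 and 42.3 CPM, higher in 6 of 7 glands (log2 fold change 2.13, SE 0.27, edgeR adjusted p = 1.01e-05).

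TREM2 stood at 0, 18.6, 98.4, 30.8, 48.3, 67.7 and 59.9 CPM against 3.95, 0, 20.5, 8.94, 50.8, 36.9 and 36.3 CPM, higher in 5 of 7 glands (log2 fold change 1.28, SE 0.27, edgeR adjusted p = 0.00273). SPP1 stood at 51.2, 557, 5350, 2020, 1150, 16600 and 3540 CPM against 557, 316, 1880, 226, 908, 2240 and 746 CPM, higher in 6 of 7 glands (1.58, SE 0.40, edgeR adjusted p = 0.0136). The ranges of both genes overlapped between the kinds of nuclei. TREM2 values at G90 rest on very few UMIs, since GPNMB-positive nuclei there summed to 58552 and 53821 UMIs over all genes. G90 replicate 2 is among the glands counted as higher for TREM2, and no order of stages was drawn for this gene. Among the genes of the milk rule, LGALS3, APOE, CXCL14 and FABP5 rose, of 5 tested, with LGALS3 at a log2 fold change of 2.19 (SE 0.24, edgeR adjusted p = 3.39e-06). Without L20 replicate 2, 2 of 4 rule genes were called, and with nuclei thinned to 1000 UMIs 1 of 3.

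The 10 called genes of smallest p were GAREM2, CTSB, PLA2G7, SMPDL3A, SLC9B2, LGALS3, TREH, MMP9, NYAP2 and CTSD. GAREM2 had the smallest p, at 34.2, 111, 37.8, 56.6, 415, 55.6 and 137 CPM against 1.97, 0, 2.92, 6.71, 12.7, 8.73 and 24.2 CPM (log2 fold change 3.22, SE 0.28, edgeR adjusted p = 1.67e-07). Its G90 values rest on few UMIs, since GPNMB-positive nuclei there summed to 58552 and 53821 UMIs over all genes. GAREM2 did not pass the filter on low counts with at least 3 macrophage markers or with thinned nuclei. Nor did it pass without L20 replicate 2 or without either PI7 gland. TREH, among the genes of largest ratio in milk, was listed at 0 in both kinds at G90 and was higher in the other 5 glands (log2 fold change 2.52, SE 0.27, edgeR adjusted p = 3.39e-06). PLA2G7, a phospholipase of lipoproteins and macrophages, was higher in 7 of 7 glands (1.40, SE 0.15, edgeR adjusted p = 2.18e-06). MITF, within 2-fold in milk, had a log2 fold change of 0.93 (SE 0.17, edgeR adjusted p = 0.00108), under the 2-fold limit.

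Other lists read in milk showed few calls in the glands. Of 7 lipid droplet and 9 fatty acid genes 0 were called by edgeR or DESeq2 (median log2 fold changes −0.07 and −0.06). At an unadjusted p under 0.05, edgeR had 1 lipid droplet genes higher and 0 lower, and 1 fatty acid genes higher and 3 lower. Of 8 cholesterol efflux genes LIPA rose, and of 13 genes of oxidant defence and iron FTL, SLC11A1 and PRDX1 rose (1 of 11 called without PI7 replicate 2). Of 6 inflammatory genes tested, CSF1 rose and 0 fell, and of 10 interferon, 9 MHC II and 7 complement genes 0 were called either way by edgeR or DESeq2. At an unadjusted p under 0.05, edgeR had 0 interferon genes, 5 MHC II genes lower, among them SLA-DRA and CIITA, and 1 complement gene higher. LYVE1, a hyaluronan receptor, fell among 5 alternative activation genes (log2 fold change −1.38, SE 0.24, edgeR adjusted p = 5.30e-04). Endothelial markers were lower in GPNMB-positive nuclei, with MMRN1, KDR, FLT4 and VWF called of 8 tested, MMRN1 at −1.95 (SE 0.24, edgeR adjusted p = 8.43e-06). NKG7, the 1 T and NK marker tested, and MMP9, of 2 neutrophil markers, were called higher. CSN1S1, of 4 epithelial markers, and FLT3, the 1 dendritic marker tested, were called lower. The part of these other cell types was not tested. The part of endothelial nuclei or RNA in these comparisons was not tested, and with at least 3 macrophage markers required 0 of 1 endothelial markers tested and 6 of 19 lysosome enzymes were called. The GPNMB-positive nuclei were deeper (3465 against 1975 median UMIs in L20 replicate 2), and with nuclei thinned to 1000 UMIs 5 of 14 lysosome enzymes and 5 of 11 TREM2 programme genes were called.

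**Figure D5:**
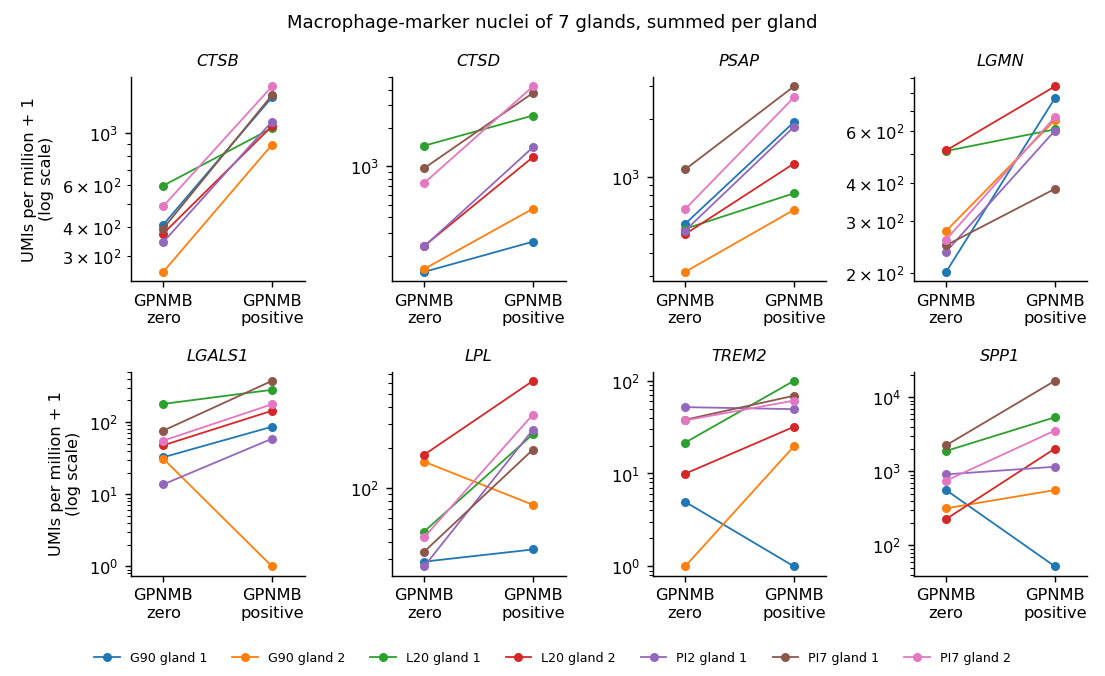
Summed levels (CPM plus 1, log axes) of 8 genes in GPNMB-zero and GPNMB-positive macrophage-marker nuclei, with 1 coloured line per gland for 7 glands. CTSB, CTSD, PSAP and LGMN rise in every gland, and LGALS1, LPL, TREM2 and SPP1 each fall in 1 or 2 of the 3 glands of G90 and PI2.

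Without L20 replicate 2, 75 genes were higher and 64 lower in the glands, without PI7 replicate 1, 62 and 46, and without PI7 replicate 2, 75 and 88, and between 7 and 14 lysosome enzymes were called when each gland was left out in turn. Fewer cells of a type and less RNA per cell were not separated in the summed counts.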

How the data were processed

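Milk cells of 2 libraries, gland nuclei of 10 sows and 2 tissue sections were used. The authors deposited raw UMI counts per gene and barcode (or spot) without normalization, made with CeleScope on Sscrofa11.1 (sections with Space Ranger 1.2.0 per the labels). No source used here gives the annotation release. No column of the deposited count files was left out.

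Cells were kept at 300 genes or more and 25% mitochondrial UMIs or less, the limits of the study. The members and all gene lists were chosen with earlier results of these data known. Milk counts were summed over cells and scaled to CPM, with exact binomial or Poisson intervals at 95%, which cover counting error only. Macrophage-marker cells were chosen on 5 genes. Some genes are not reported here. Clusters used numpy 2.4.6, scikit-learn and igraph 0.11.9 (2000 genes most variable for their mean, 15 principal components, 20 neighbours, links by shared neighbours, Louvain at resolution 0.3). Doublets were scored with Scrublet in scanpy 1.11.5.

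Gland counts were summed per sow and kind of nucleus and tested with edgeR 4.0.16 (TMM, filter on low counts, sow as a block), with Benjamini-Hochberg adjustment over all genes, after a test on simulated data. The sow pairs the kinds of nuclei because both come from 1 gland. Glands were independent biological replicates per the study's methods, and shares were compared with an exact permutation test. Replicate numbers did not pair glands across stages (2 of 10 pairs correlated above 0.1, from −0.47 to 0.36).

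Genes named were those of the rule, the 10 of largest ratio each way, those of the lists with the most UMIs or past 2-fold, the 5 most like GPNMB, and, in glands, the 10 of smallest p and called genes of the lists. A few genes of the lists, MITF, TFEB and ABCA1 among them, were named outside this rule after their values were seen. Alternatives were other thresholds of the rule, filters, depths, scalings, DESeq2 1.42.0, other marker numbers and each gland left out. Total UMIs ranged from 18962138 to 53165191 per gland. E-boxes were searched in RefSeq windows of Sscrofa11.1.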

Additional observations from a re-analysis of the deposited data

Results flagged for a closer look

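Among the 4 lactating glands, L20 replicate 2 stood far from the others, with 6.75% of nuclei meeting the rule against at most 0.254% in the other 3. Its gap to the nearest gland was 0.962 of the whole range, above Dixon's 95% critical value for 4 samples. Among the 6 glands of other stages the gap was 0.344, under the critical value for 6. This limit flags about 1 in 20 groups of normally distributed values by chance. The lactating group pools L0 and L20 glands with shares down to 0, so its own rate is not known. The cause was not tested. In this gland 17.3% of nuclei held at least 2 macrophage markers, and epithelial markers summed to 583 CPM, against 2321 CPM in L20 replicate 1.

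The tissue sections were outside the comparisons and held a GPNMB signal. GPNMB stood at 6.70 CPM in the section of G90 (287 UMIs, in 5.66% of 4721 spots) and at 313 CPM in the section of PI2 (5602 UMIs, in 64.7% of 2248 spots). SPP1 stood at 14.2 and 269 CPM and TREM2 at 0.584 and 12.9 CPM in the same sections. The rule genes APOE and CXCL14 were also higher at PI2, at 940.0 and 4177 CPM and at 43.4 and 143 CPM. So were GPX3, at 13.9 and 34.0 CPM, LGALS3, at 23.1 and 152 CPM, and the macrophage marker CD68, at 4.83 and 41.4 CPM. The rule genes FABP5 and FABP4 went the other way, at 439.7 and 331 CPM and at 438 and 297 CPM. With 1 section per stage and several cells in a spot, no test was possible, and the spots cannot be assigned to the milk cells.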

How the results depend on the processing

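The share of members in the library labelled L0 (1.03%) was 0.455% with at least 4 rule genes, 0.746% with at least 2 GPNMB UMIs, 1.95% with 500 genes or more and 10% mitochondrial UMIs or less, 0.660% with at least 2 macrophage markers and 3.79% without exclusion genes. In the library labelled L20 (5.84%) it was 4.49%, 4.62%, 12.7%, 4.58% and 6.83% in the same order, and 5.27% at 1000 UMIs per cell. It stayed higher under the label L20 in each. Genes lower under the label L20 (997) were 633 with at least 50 UMIs and 2756 with at least 1 UMI in each library, and genes higher in members than in GPNMB-zero macrophages (870) were 563 with at least 50 UMIs. With at least 1 UMI in each library, 28.4% of the genes past 2-fold were higher under the label L20, against 51.8% as reported.

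For the gland test (115 higher, 123 lower) no filter gave 175 higher, at least 3 macrophage markers 40 and 7, nuclei thinned to 1000 UMIs 19 and 19, and DESeq2 96 and 112. Without the sow as a block (no replicate block) 4 and 0 genes were called by edgeR (298 higher and 292 lower at an unadjusted p under 0.05). DESeq2, run with the block, shared 93 and 98 calls with edgeR as reported. With at least 3 macrophage markers, 34 of the 40 higher genes but only 1 of the 7 lower genes were among the reported calls. That setting tested 3212 genes, against 7410 as reported. With nuclei thinned to 1000 UMIs, 19 of 19 higher and 13 of 19 lower genes were among the reported calls. With each gland left out in turn, 62 to 146 genes were higher and 46 to 156 lower. The lowest counts, 62 and 46, came without PI7 replicate 1, and 75 were higher without L20 replicate 2 (64 lower) or PI7 replicate 2. With replicate numbers as a replicate block, the difference in gland shares of 0.815 points had an exact permutation p = 0.740. It ranged from −0.851 to 1.40 with 1 gland left out, and the lowest, −0.851 without L20 replicate 2, was the 1 change of direction. The block on replicate numbers was fitted for no other result. Thinning of nuclei in the gland test, the minimum of 2 macrophage markers and the removal of the 5% of cells with the highest doublet score were added after seeing the data. Of values for single genes, 532 of 657 in the gland test, 485 of 503 between the libraries and 542 of 546 against GPNMB-zero macrophages kept their direction and side of the threshold, and none of these changed direction. In the gland test, settings in which a gene failed the filter on low counts gave no value for it and were not counted. The cause of the changes between settings was not tested. Milk has 1 library per label, so depth and library cannot be told apart from stage.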

Other observations

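Growth factor and protease genes were read beside all genes, of which 11.3% were higher and 10.0% lower in the members. Of 9 growth factor genes, TGFBI, HBEGF, EREG and AREG were lower by at least 2-fold in the members than in GPNMB-zero macrophages in both libraries, and 0 were higher. HBEGF, a ligand of the epidermal growth factor receptor, stood at 245 and 37.2 CPM in the members (labelled L0 and L20) against 706 and 256 CPM, and EREG, another such ligand, at 11.3 and 21.2 CPM against 129.9 and 119 CPM. BTC, a further ligand of this receptor, went the other way, with 59 and 315 UMIs in the members and 0 and 12 in GPNMB-zero macrophages. Of 11 protease and inhibitor genes 1 was higher, a share near that of all genes. It was CSTB, which inhibits cathepsins in the cytosol, at 8171 and 12775 CPM against 1991 and 3524 CPM. The 5 lower genes were MMP25, TIMP1, SERPINB2, PLAUR and CHIT1, and TIMP1 stood at 822 and 4132 CPM against 5041 and 28199 CPM.

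IGF1, a growth hormone target made by some tissue macrophages, gave 2 and 82 UMIs in the members and 2 and 2 in GPNMB-zero macrophages. FN1, the matrix protein fibronectin, stood at 1108 and 259.9 CPM in the members and at 1243 and 109 CPM in GPNMB-zero macrophages. In gland nuclei, MMP9, a gelatinase, was higher in GPNMB-positive than in GPNMB-zero macrophage-marker nuclei in 7 of 7 glands (log2 fold change 2.91, SE 0.33, edgeR adjusted p = 3.42e-06). CSF1, the growth factor of macrophages, was higher in 6 of 7 glands (1.84, SE 0.28, edgeR adjusted p = 1.38e-04) and stood at 392 and 123 CPM in milk members, against 594 and 151 CPM in GPNMB-zero macrophages.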
